A study of Mus musculus with 2 samples.

Results

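A set of 8 genes known from tendon, ligament and joint was followed in the incisor of mice that were wild-type or lacked *Sox21* (*Sox21* KO). The members are *Scx*, *Mkx*, *Tnmd*, *Thbs4*, *Postn*, *Angptl7*, *Prg4* and *Cilp*, and they were taken as every probe other than controls that carries 1 of these names in the scanner files. All 8 genes were found, with 9 probes on 18 spots, among 21244 genes with a probe and a reference symbol. The list was chosen on the ratios of these arrays, KO over wild-type, that were already known, with *Angptl7* among the lowest, so the comparison between the genotypes describes the members and is no test of them.

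Tendons and ligaments are cords of aligned collagen fibres made by fibroblast-like cells, and the joint surface and its lining make lubricating and cartilage-associated proteins. Scleraxis (*Scx*) and Mohawk (*Mkx*) are transcription factors of the tendon lineage, and tenomodulin (*Tnmd*) is a membrane protein of differentiated tendon cells. In the jaw, the tooth is held by the periodontal ligament, which arises from the dental follicle around the tooth germ and is rich in periostin.

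RNA was hybridized to Agilent 1-colour arrays, with 1 array for each genotype. The wild-type animals were C57BL/6J mice, and the *Sox21* KO animals came from a line received as a gift, whose strain background is not given in the sources used here, nor is the number of animals behind each RNA. The sample labels give the age as postnatal day 0 for both genotypes, whereas the study's methods give the following day. Each sample is labelled as incisor, and the tooth germ holds epithelium and mesenchyme together.

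The tissue label was checked against tooth genes. All 9 tooth genes of the list were well above background on both arrays by the mark of the scanner software, among them *Amelx*, the main enamel matrix protein, and *Dspp*, of dentin, whose ratio of -0.01 changed sign under other scalings. The targeted gene, *Sox21*, was still detected on the KO array, at log2 ratios of -1.09 and -1.51 for its 2 probes, and whether these lie in the deleted sequence is not given in the sources used here. Here and below, a normalized signal is the processed signal of a spot divided by the 75th percentile of its array, and a log2 ratio is the *Sox21* KO value minus the wild-type value on the log2 scale of that signal. A gene is called measured when the scanner software marked its probe as well above background for both genotypes, which held for 13796 genes. With 1 array per genotype, no difference has a replicate check, and the spread between spots or the error given by the scanner software covers the reading of the array alone. In a tissue sample such as this one, fewer cells of a type and less RNA per cell cannot be told apart.

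The sequences behind the member that differed most and the member read most often are shown first. The *Tnmd* probe lies on chromosome X at chrX:130397487-130397546 (mm9, plus strand), at base 708 of its transcript, and 1 of its 3 reading frames holds no stop codon. The *Angptl7* probe lies on chromosome 4 at chr4:147869984-147870043 (mm9, minus strand), at base 1407 of its transcript, and 0 of its frames are open. Of the *Angptl7* probe the first 30 bases of 60 are printed, and the *Tnmd* probe is printed whole.
Tnmd probe: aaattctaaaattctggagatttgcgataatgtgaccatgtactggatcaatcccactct
Angptl7 probe, first bases: taaccctgaggtcacttaacccattttccc

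The 250 bases before the transcription start of the same genes, from RefSeq on GRCm38.p6, are chr4:148500463-148500712 (minus strand) for *Angptl7* and chrX:133850758-133851007 (plus strand) for *Tnmd*. Capitals mark AACAAT on either strand, the core that SOX proteins bind, and CANNTG, the E-box bound by basic helix-loop-helix factors such as scleraxis.
Angptl7 promoter: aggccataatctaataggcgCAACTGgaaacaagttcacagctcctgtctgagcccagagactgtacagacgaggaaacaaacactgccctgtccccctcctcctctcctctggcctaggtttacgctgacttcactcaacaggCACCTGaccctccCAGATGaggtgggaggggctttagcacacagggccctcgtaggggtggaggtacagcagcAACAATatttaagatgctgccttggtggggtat
Tnmd promoter: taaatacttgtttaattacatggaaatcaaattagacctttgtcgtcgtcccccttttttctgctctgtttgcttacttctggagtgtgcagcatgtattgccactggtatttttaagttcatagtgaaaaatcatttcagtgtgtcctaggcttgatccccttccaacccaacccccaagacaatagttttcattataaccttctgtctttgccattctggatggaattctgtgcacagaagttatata
The *Angptl7* window held AACAAT once, beginning 33 bases before the start, and 3 E-boxes. The *Tnmd* window held neither set of letters. Among the 6 promoter windows found for 5 of the members, AACAAT was in 2, of *Angptl7* and of 1 of the *Postn* starts, and CANNTG was in 3. Over all 32851 promoter windows of this length, 9.42% held AACAAT and 66.2% held CANNTG, so an E-box is a common string here.

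Of the 8 members, 6 were measured on both arrays, and *Prg4* and *Cilp* were not well above background on either. *Angptl7* was lower in *Sox21* KO tooth germ and the 5 other measured members were higher by small amounts, with log2 ratios from 0.03 to 0.33. At least 2-fold lower was 1 member, *Angptl7*, and 0 members were at least 2-fold higher. Over all measured genes, 0.667% were at least 2-fold lower and 0.739% at least 2-fold higher, 92 and 102 genes, which became 68 and 128 when the arrays were scaled on their medians. By any amount, 47.6% of all measured genes were lower and 52.4% higher, beside 1 lower and 5 higher among the 6 members. The median log2 ratio was 0.17 over the measured members and 0.01 over all measured genes.

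**Figure D1:**
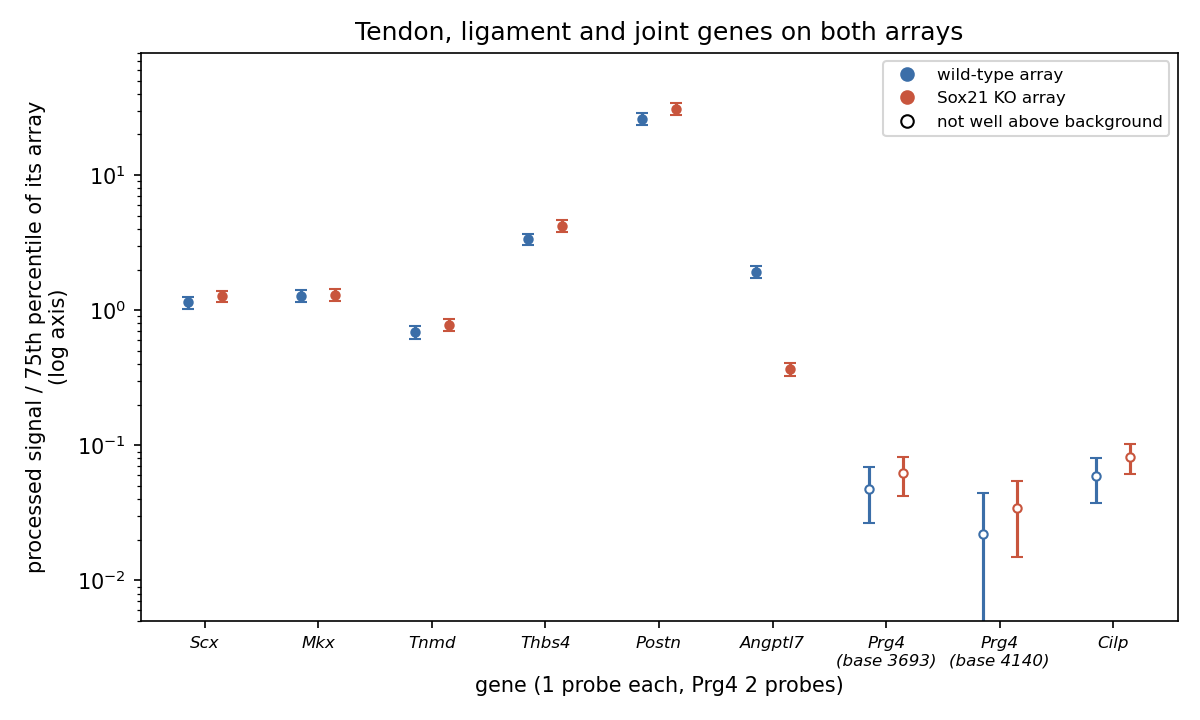
Normalized signal (processed signal over the 75th percentile of the array, log axis) of each probe on the arrays of both genotypes. Points are probe values, bars are the error given by the scanner software for a spot (averaged over the 10 spots for *Tnmd*), and open points were not well above background. The *Angptl7* points stand apart, at 1.93 and 0.367, whereas the bars of the genotypes lie close together or overlap for the other genes, and levels of different probes cannot be compared. The lower wild-type bar of the *Prg4* probe at base 4140 runs off the axis, since its error exceeds its value.

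*Angptl7* encodes angiopoietin-like 7, a secreted glycoprotein first described in the cornea. It has 1 probe and 1 spot on each array. The wild-type array gave a processed signal of 517, with a scanner error of 51.9, and the KO array gave 101, with a scanner error of 11.0. After normalization these were 1.93 and 0.367, a log2 ratio of -2.40, or 5.27-fold lower in *Sox21* KO tooth germ. The error of this log2 ratio, computed from the scanner errors on the 2 arrays, was 0.21. Among 73 probes that are spotted repeatedly and lie within 2-fold of the mean signal of *Angptl7*, the SD of the log2 ratio between spots had a median of 0.12 and a maximum of 0.29. The difference was larger than these spreads between spots, though its spread between animals is unknown. *Angptl7* ranked 5th from the lowest of the 13796 measured genes. Since the list was chosen with this low ratio known, neither its size nor its rank is a test.

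*Angptl7* lies within the span of *Mtor*, the gene of the growth-regulating kinase mTOR, by the RefSeq annotation. The *Mtor* probe had normalized signals of 0.823 and 0.773, a log2 ratio of -0.09. The 6 measured genes nearest to *Angptl7*, 3 on each side and *Mtor* among them, had log2 ratios from -0.29 at *Exosc10* to 0.31 at *Fbxo2*. Beside the other 7 members, 42 such neighbours ran from -2.32 to 0.58, and 41 of them from -0.39. The exception was *Kif5b*, a kinesin motor gene next to *Mkx*, at -2.32, beside 0.03 for *Mkx* itself. The neighbours were taken by position alone, but this step and the genes named from it were chosen after the values had been seen.

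The genes whose pair of log2 normalized signals lay nearest to that of *Angptl7* were *Slc24a4*, *Zfp160* and *Pcgf1*. Their distances on the log2 scale over the 2 arrays were 0.45, 0.60 and 0.74, and their log2 ratios were -2.27, -2.96 and -1.39. *Slc24a4* encodes a potassium-dependent sodium and calcium exchanger of enamel-forming ameloblasts. With 2 arrays, this likeness rests on 2 values for each gene and also depends on how bright each probe is.

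**Figure D2:**
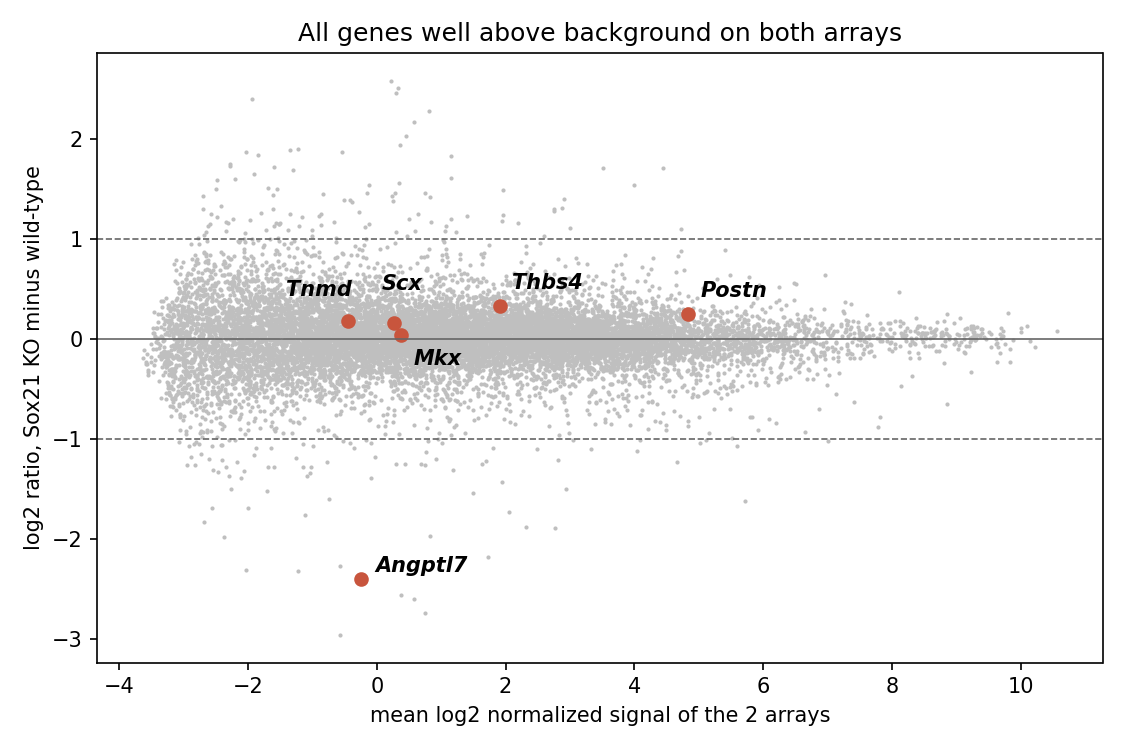
Log2 ratio (*Sox21* KO minus wild-type) against the mean log2 normalized signal of the 2 arrays, for the 13796 measured genes in grey and the 6 measured members in red. Dashed lines mark a 2-fold difference. *Angptl7* lies at the lower edge, at -2.40, and the 5 other members lie inside the grey band.

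The transcription factors of the lineage differed little between the arrays. For *Scx*, the wild-type array gave a processed signal of 306 (scanner error 31.1) and the KO array 350 (scanner error 35.4). Normalized, these were 1.14 and 1.27, a log2 ratio of 0.15 with an error of 0.21. *Mkx* had processed signals of 342 with an error of 34.6 and 360 with an error of 36.3. Its normalized signals were 1.28 and 1.31, a log2 ratio of 0.03 with an error of 0.21. For neither factor did the difference exceed this error. It was computed from the scanner errors on the 2 arrays and was 0.20 to 0.21 for every measured member. Repeatedly spotted probes of like signal had a median SD between spots of 0.10 near *Scx* and 0.09 near *Mkx*. The probes lie on chromosome 15 from 76289708 to 76289767 for *Scx* and on chromosome 18 from 6935183 to 6935242 for *Mkx* (mm9). *Scx* lies within the span of *Bop1*, a gene of ribosome formation, whose log2 ratio was -0.03.

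*Tnmd* was the member read most often, since its probe was spotted 10 times on each array. On the wild-type array its normalized signal had a lowest value of 0.612, a median of 0.705 and a highest value of 0.751, and on the KO array these were 0.757, 0.775 and 0.824. Every spot was higher on the KO array than at the same place on the wild-type array, which held under all 7 settings of scaling and background. The spots of the arrays lay apart by a narrow margin in this scaling and in 4 of the 7 settings in all, and they overlapped with the 75th percentile taken over spots other than controls and under the 2 other background corrections. The mean log2 ratio was 0.18 with an SD of 0.12 between the 10 spots, which ranged from 0.04 to 0.36. Relative to their mean, the processed signals varied between spots by 7.44% on the wild-type array and by 2.66% on the KO array. These spots read the same RNA, so their agreement describes the precision of the array and not the spread between animals.

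**Figure D3:**
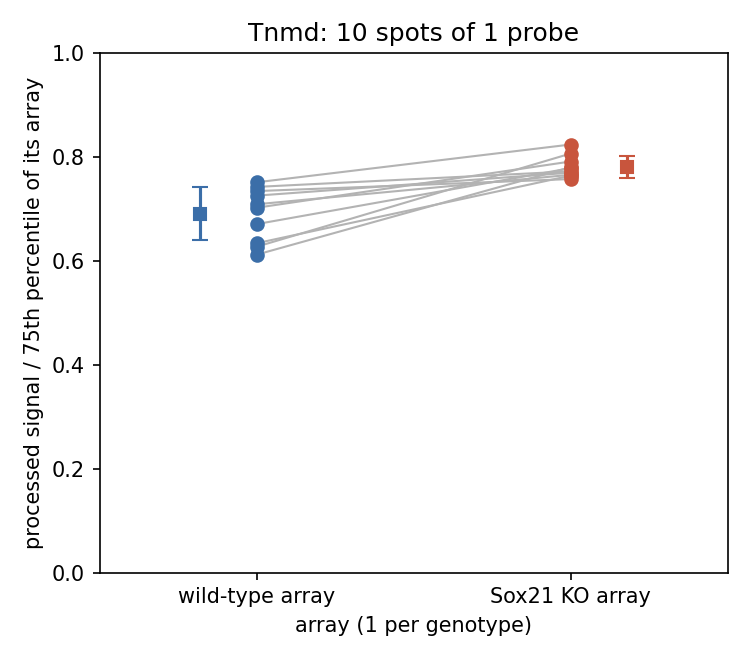
Normalized signal of the 10 *Tnmd* spots on the wild-type and the *Sox21* KO array, with lines joining spots at the same place on the array. Squares with bars are the mean and the SD between spots. The wild-type spots end at 0.751 and the KO spots begin at 0.757, a gap that closes under 3 of the 7 settings.

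Of the measured members, *Thbs4* and *Postn* encode proteins of the extracellular matrix. *Thbs4* encodes thrombospondin 4, a matrix glycoprotein of tendon and of the junction between muscle and tendon. Its probe, on chromosome 13 from 93521565 to 93521624 (mm9), gave a processed signal of 899 (scanner error 90.0) in wild-type and 1163 (scanner error 116) in *Sox21* KO tooth germ. Normalized, these were 3.36 and 4.22, a log2 ratio of 0.33 with an error of 0.20. The ratio of *Thbs4* was below 2-fold, and 90.0% of all measured genes had a lower ratio. *Postn* encodes periostin, a matrix protein of periodontal ligament and periosteum. Its probe, on chromosome 3 from 54194840 to 54194899 (mm9), had processed signals of 6987 with an error of 699 and 8541 with an error of 854. Normalized, these were 26.1 and 31.0, a log2 ratio of 0.25 with an error of 0.20, and 84.8% of measured genes had a lower ratio. Both ratios exceeded this error, that of *Postn* by little. The error was 0.20 to 0.21 for every measured member, so it acts much like a fixed cut. Both ratios also exceeded the largest SD between spots among repeated probes of like signal, which was 0.14 near *Thbs4* and 0.08 near *Postn*. With 1 spot per array and members chosen on these ratios, neither comparison is a test.

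The remaining members, *Prg4* and *Cilp*, were near background. *Prg4* encodes lubricin, which lubricates cartilage and also coats tendon, and it has 2 probes, on chromosome 1 from 152297067 to 152297126 and from 152296620 to 152296679 (mm9). The probe at base 3693 of the transcript had processed signals of 12.8 in wild-type and 17.2 in KO, with errors of 5.68 and 5.49. The probe at base 4140 had 5.92 and 9.56, with errors of 5.93 and 5.45. *Cilp*, the cartilage intermediate layer protein, had 15.8 and 22.7 at its probe on chromosome 9 from 65128007 to 65128066 (mm9), with errors of 5.75 and 5.68. These signals were low on both arrays, and the 3 probes were not marked as well above background on either, so no ratio is given for them. For comparison, the lowest signal so marked among all probes was 21.3 in wild-type and 19.5 in KO. Of the 308 negative-control spots, 5 reached the *Cilp* signal in wild-type and 0 in KO. For the brighter *Prg4* probe these counts were 6 and 2, and for the dimmer probe 27 and 3. By the scanner's weaker test of spot pixels against background, every reading of these 3 probes was above background except that of the dimmer *Prg4* probe on the wild-type array.

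Other tendon and ligament genes were drawn from lists that, like the members, were written with earlier results of these arrays known. Over all measured genes, for comparison, 52.4% were higher, with a median log2 ratio of 0.01. The cartilage, bone, fibroblast and epithelium lists read further below also had more genes higher than lower, and those of muscle, tooth and cornea the reverse. Of 14 matrix genes of tendon and ligament, all 14 were measured, 12 had a ratio above 0 and 2 below, with a median log2 ratio of 0.22 and 0 genes past 2-fold. The highest was *Comp*, a thrombospondin-family protein of cartilage and tendon, at 0.89, and the lowest was *Kera*, the proteoglycan keratocan, at -0.64. Both of these probes were dim, with normalized signals from 0.335 to 0.619 for *Comp* and from 0.209 to 0.134 for *Kera*. Of 12 regulators of tendon, 9 were measured, 7 of them higher, with a median of 0.15. The highest was *Egr1*, an early-response zinc finger factor also active in tendon, at 0.67. *Fgf8*, a growth factor, passed the mark of background in wild-type alone and only at its brightest probe, at least 1.46-fold higher there. That probe was dim, with processed signals of 27.6 in wild-type and 15.9 in KO, near the lowest marked wild-type signal of 21.3. Its other probes passed on neither array, at 9.20 and 4.48 and at 5.91 and 5.46.

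The joint list was mixed. Of 14 genes, 13 were measured, with 7 higher, 6 lower and a median of 0.08, and 2 were at least 2-fold lower. These were *Wnt16*, a WNT ligand of the joint surface, at -2.31, and *Gdf5*, a growth factor that marks the forming joint, at -1.73. *Wnt16* was dim, with normalized signals of 0.545 and 0.110, and its log2 ratio was -1.26 under the normal-exponential background correction. The normalized signals of *Gdf5* were 7.57 and 2.28. *Gdf6*, a close relative, differed in the opposite direction, since it passed the mark of background in *Sox21* KO alone, where it was at least 2.86-fold higher. *Gdf7*, the third of these growth factors, was at -0.51, and *Has2*, which makes hyaluronan, was the highest of the measured genes at 0.82. Among 8 genes of dental follicle and periodontal ligament, all 8 measured, 6 were higher with a median of 0.19, from *Tgfbi*, a relative of periostin, at -0.20 to *Pth1r*, a parathyroid hormone receptor, at 0.65.

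Among 13 close relatives of the members, 11 were measured, 7 higher and 4 lower, with a median of 0.09 and 0 past 2-fold. The angiopoietin-like genes gave -0.10 for *Angptl4*, 0.09 for *Angptl6*, 0.27 for *Angptl1* and 0.63 for *Angptl2*. None of these 4 genes was near the ratio of *Angptl7* (0 past 2-fold). The thrombospondins *Thbs1*, *Thbs2* and *Thbs3* had 0.22, 0.38 and 0.05, beside 0.33 for *Thbs4*. *Comp* was the highest of the relatives and *Tcf15*, related to *Scx*, the lowest at -0.78, with *Tcf15* signals of 0.199 and 0.116. *Cnmd*, chondromodulin, the relative of *Tnmd* in cartilage, did not pass the background mark for either genotype, at processed signals of 4.78 and 4.29.

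**Figure D4:**
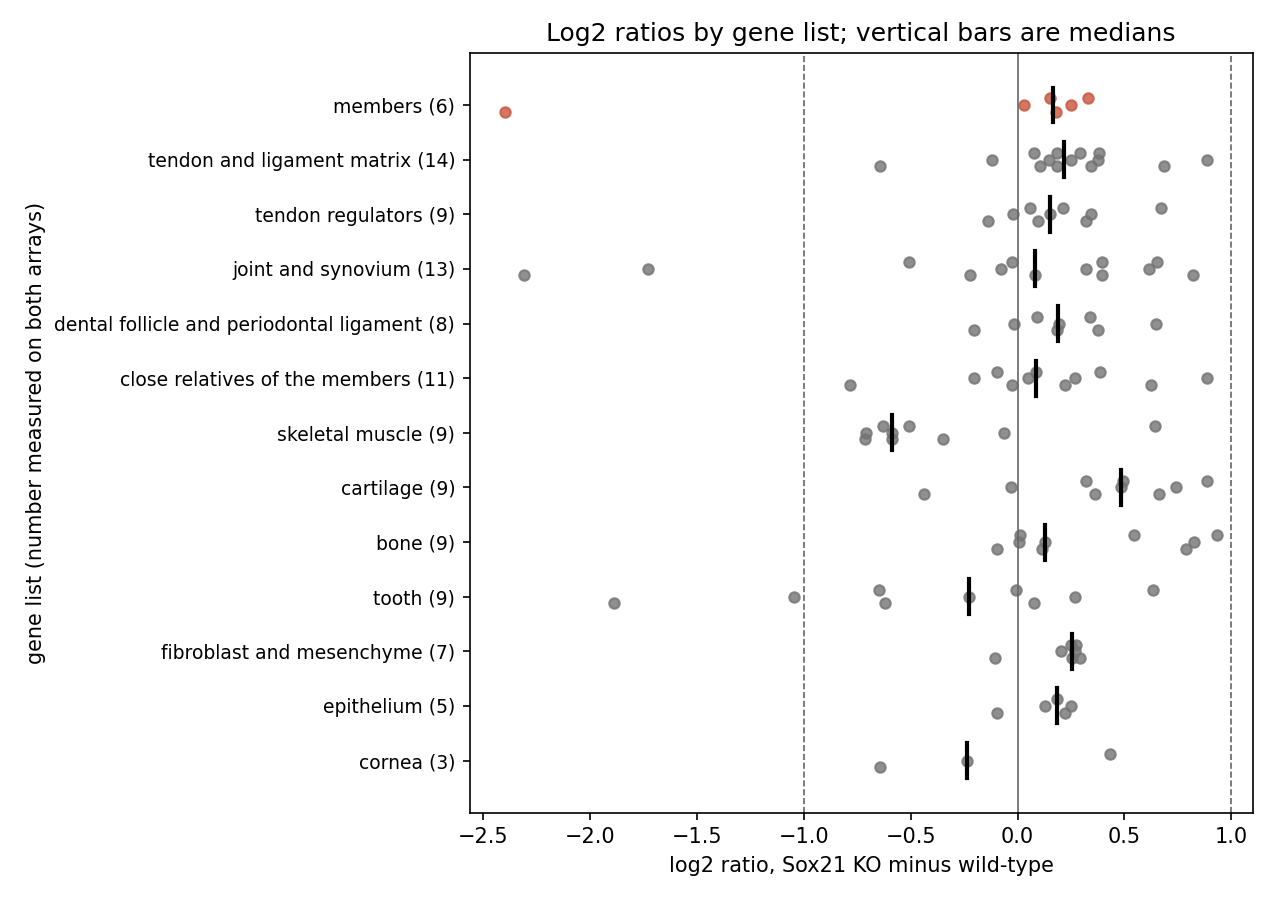
Log2 ratio (*Sox21* KO minus wild-type) of each measured gene in the members and in 12 further lists, with the number measured in brackets. Points are genes, black bars are list medians and dashed lines mark 2-fold. The skeletal muscle bar lies at -0.59 and the cartilage bar at 0.48, and the *Angptl7* point stands alone at the left of the members.

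Lists of skeletal muscle, cartilage and bone genes were read beside the members, and 0 of their genes were past 2-fold in either direction. Of 12 skeletal muscle genes, 9 were measured and 8 were lower, with a median log2 ratio of -0.59, and their summed normalized signal was 92.6 on the wild-type and 65.0 on the KO array. The lowest was *Ckm*, muscle creatine kinase, at -0.71, and the highest *Myh3*, an embryonic myosin, at 0.64, while *Myod1* and *Pax7*, of muscle progenitors, were not well above background on either array. Of 12 cartilage genes, 9 were measured and 7 were higher, with a median of 0.48 and sums of 23.9 and 35.5. Of its collagens, *Col2a1*, the main collagen of cartilage, had a log2 ratio of 0.74, *Col11a1* 0.50, *Col11a2* 0.48, *Col9a1* -0.03, which changed sign under other scalings, and *Col9a3* -0.44. *Acan*, aggrecan, and *Hapln1*, which links it to hyaluronan, had 0.36 and 0.66. The list ran from *Col9a3* at -0.44 to *Comp* at 0.89, and *Matn1*, *Matn3* and *Cnmd* were not well above background on either array. The 9 bone genes had a median of 0.13, and 8 were higher, or 6 under 3 other settings, where *Sp7* and *Alpl*, at 0.01 each, were below 0. Their values ran from *Runx2*, the master factor of osteoblasts, at -0.10 to *Dmp1*, of osteocytes and odontoblasts, at 0.93 (1.01 and so past 2-fold under median scaling), with sums of 515 and 597. The part of muscle, cartilage or bone content in the values of the members was not tested.

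The fibroblast and mesenchyme list was set beside the higher members. Of its 8 genes 7 were measured and 6 were higher, with a median of 0.26, sums of 935 and 1119, and values from *Twist1*, a mesenchymal factor, at -0.11 to *Vim*, vimentin, at 0.29. *Postn* at 0.25 lies within the range of the 6 higher genes, which began at 0.20, and *Thbs4* at 0.33 just above it. *Tnmd* at 0.18, *Scx* at 0.15 and *Mkx* at 0.03 lie below those genes and above *Twist1*. The epithelium list, with 5 genes measured, had a median of 0.18, from *Cdh1*, E-cadherin, at -0.09 to *Krt5*, a basal keratin, at 0.25, with sums of 555 and 650. Of the 9 tooth genes, 6 were lower, with a median of -0.23 and sums of 3282 and 2987, and those at least 2-fold lower were *Amtn*, amelotin, at -1.89 and *Klk4*, an enamel protease, at -1.05 (-0.97 and so below 2-fold under median scaling), while the highest was *Odam* at 0.63. The share of these cell types in each sample was not tested as a source of the differences.

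Since *Angptl7* was first described in the cornea, a list of cornea genes was examined as well. Of 5 genes 3 were measured, with a median of -0.23, and their sums were 873 and 746, nearly all of it from *Clu*, clusterin, which many tissues make. They ran from *Kera* at -0.64 to *Aldh3a1*, an aldehyde dehydrogenase, at 0.43. The defining genes *Krt12*, the corneal keratin, and *Pax6*, the eye factor, were not well above background on either array.

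**Figure D5:**
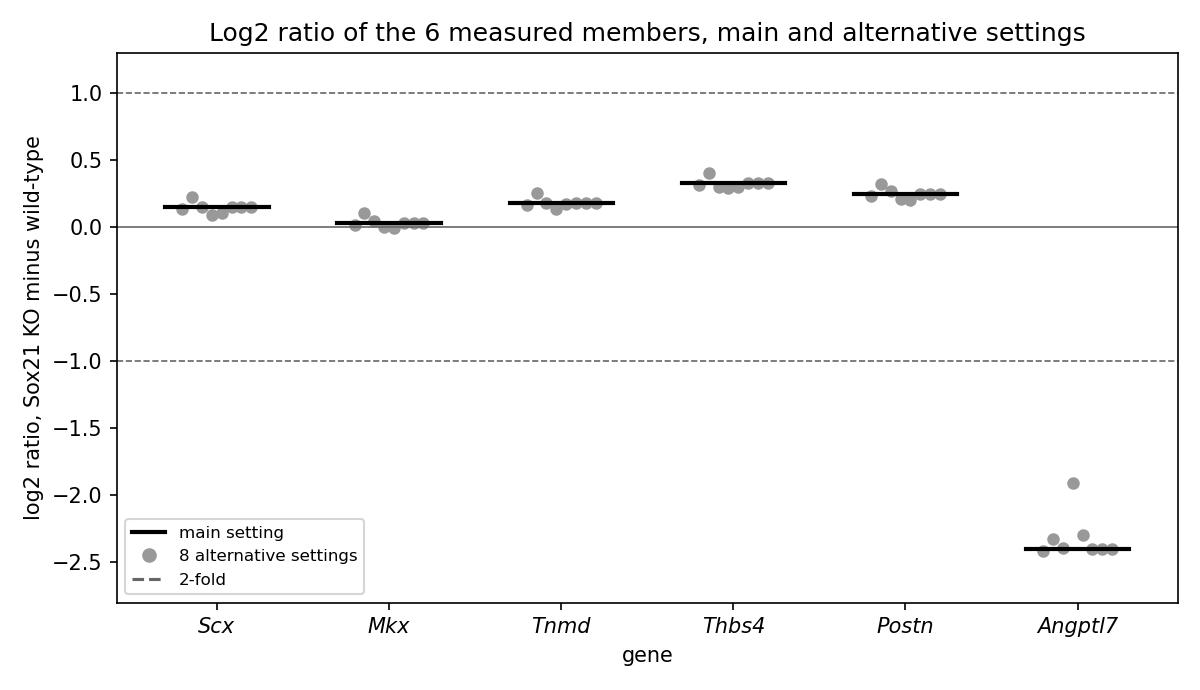
Log2 ratio (*Sox21* KO minus wild-type) of the 6 measured members. Black bars are the values under the main setting, grey points those under 8 alternative scalings, background corrections, probe choices and filters, and dashed lines mark 2-fold. *Angptl7* stays between -2.41 and -1.91 and the other members between -0.00321 and 0.40.

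The order of the measured members by log2 ratio was *Angptl7*, *Mkx*, *Scx*, *Tnmd*, *Postn* and *Thbs4*. The scanner's errors of neighbours in this order overlap from *Mkx* to *Thbs4*, so the 5 genes cannot be ranked among themselves, and *Angptl7* stands below all of them by more than these errors. Under the alternatives, *Scx*, *Tnmd*, *Postn* and *Thbs4* were above 0 throughout, and *Mkx* crossed to -0.00126 and -0.00321 under the 2 other background corrections.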

How the data were processed

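RNA of incisor tooth germ was labelled with Cy3 and hybridized to Agilent SurePrint G3 Mouse GE arrays, 1 per genotype. Per the labels, Agilent Feature Extraction 10.7.3.1 was used, and the file headers give mm9 for probe positions. The authors deposited, per spot, a processed signal intensity (background removed within the array), its error, mean and local background intensities and quality flags. Their other table holds ratios: the deposited processed signal over 1 number per array, 268 and 276, constant to a relative deviation of 1.37e-06.

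Each processed signal was divided by the 75th percentile over all 62976 spots of its array. The deposited data had 267 outlier spots among spots other than controls, which were left out, leaving 55679 probes, and 0 spots were saturated. Well above background were 49.7% and 50.4% of spots. By RefSeq (GRCm38.p6), 26298 probes were named by accession, 2044 by symbol, 355 by older symbol and 26982 not. The brightest measured probe stood for a gene.

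No test was run, with 1 array per genotype. Members and lists were chosen with earlier results of these data known. All members are named, and from each list the highest and the lowest measured gene and those past 2-fold, except where a gene is not reported here. Genes outside this rule (other relatives, neighbours, dim genes, *Gdf7*, further cartilage and bone genes) were named after their values were seen. Scaling, background, filter, probe choice, input and threshold alternatives were tried. Steps were tested on simulated data. Python 3.11.15, numpy 2.4.6, pandas 2.3.3, scipy 1.17.1, matplotlib 3.10.9, R 4.3.3 and limma 3.58.1 were used.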

Additional observations from a re-analysis of the deposited data

How the results depend on the processing

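Alternatives changed 1 choice each. Under every alternative run, *Angptl7* was the only member at least 2-fold lower (1 member), 0 members were at least 2-fold higher, and the median of the measured members stayed between 0.12 and 0.24. The log2 ratio of *Angptl7* was -1.91 under the normal-exponential background correction and -2.29 with the local background subtracted from the mean signal. Under the same settings *Mkx* reversed, to -0.00126 and -0.00321, so that 2 members were lower. The counts over all genes, 92 lower and 102 higher, became 40 and 46 under the normal-exponential correction, 695 and 508 without the requirement on background, and 412 and 441 at 1.5-fold. For these shifts the cause was not tested, except that the last settings count more genes by construction. Across 7 scalings and background settings, list medians kept their sign, and the number of higher genes moved by at most 1 in each list but bone (6 to 8). Among the named genes of the lists, *Dspp* went from -0.01 to 0.07 under median scaling and to 0.03 under quantile normalization. Under median scaling *Klk4* fell short of 2-fold, at -0.97, and *Dmp1* passed it, at 1.01. The log2 ratio of *Wnt16* was -1.26 under the normal-exponential correction. No other list gene measured in both settings changed its 2-fold call or, if called, moved by over 1.5 times. Signal over background limits *Prg4* and *Cilp*. No paired analysis was possible because each genotype has 1 array.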
